A study of Mus musculus with 16 samples.

Results

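Saa1, Saa2, Saa3, Retnlb, Dmbt1, Lypd8, Pigr and Plac8 are 8 acute-phase and mucosal defence genes that were taken by name from the 49585 genes of the count table. They were followed in small intestinal organoids, which are crypt cultures that grow into miniature epithelium without immune or stromal cells. The organoids came from villin-cre positive Atg16l1 fl/fl mice, in which the autophagy gene Atg16l1 is deleted in intestinal epithelial cells (ΔIEC, labelled KO), and from cre-negative Atg16l1 fl/fl mice (fl/fl, labelled WT). Each was left untreated or was given recombinant murine IL-22 at 10 ng/ml for 24 h, which made 4 groups of 4 cultures. Both genotypes carry the floxed Atg16l1 alleles, and cre was the added element in ΔIEC mice, which were on a C57BL/6 background. Each genotype was represented by 2 organoid lines with 2 cultures per line and treatment, so n = 4 counts cultures of 2 lines, and line and genotype cannot be told apart. In what follows the values of a group are listed with the first line of that genotype ahead of the second.

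IL-22 is a cytokine of the IL-10 family that immune cells release and that acts on epithelium through a receptor coupled to JAK kinases and STAT3. In the gut it is known for raising secreted antimicrobial proteins, mucus components and acute-phase proteins. The acute-phase response is best known from the liver, but intestinal epithelium makes serum amyloid A proteins as well. Secreted defence at the mucosa rests on proteins that bind or agglutinate bacteria, on proteins that keep bacteria away from the cell surface, and on the transport of IgA into the lumen.

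The members divide by role as follows. Saa1, Saa2 and Saa3 encode serum amyloid A proteins, small lipid-binding acute-phase proteins. Retnlb encodes resistin-like molecule beta, a bactericidal protein secreted by goblet cells. Dmbt1 encodes a large scavenger receptor glycoprotein that binds and agglutinates bacteria. Lypd8 encodes a glycosylphosphatidylinositol-anchored protein that is shed into the lumen and binds flagellated bacteria. Pigr encodes the polymeric immunoglobulin receptor, which carries dimeric IgA across the epithelium and is released with it as secretory component. Plac8 encodes a small cysteine-rich protein.

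All 8 genes are protein coding on GRCm38. The serum amyloid A genes lie together on chromosome 7, with Saa3 (ENSMUSG00000040026.8) at chr7:46711998-46715700 and Saa1 (ENSMUSG00000074115.5) at chr7:46740497-46742980 on the minus strand and Saa2 (ENSMUSG00000057465.5) at chr7:46751790-46754313 on the plus strand. Dmbt1 (ENSMUSG00000047517.11) is on the plus strand of the same chromosome at chr7:131032053-131121630. Its span overlaps Fgfr2 on the opposite strand without an overlap of exons. Retnlb (ENSMUSG00000022650.6) lies at chr16:48816856-48818892, Lypd8 (ENSMUSG00000013643.13) at chr11:58379043-58390728 and Pigr (ENSMUSG00000026417.13) at chr1:130826684-130852249, all on the plus strand. Plac8 (ENSMUSG00000029322.12) lies at chr5:100553725-100572245 on the minus strand. No other gene of the annotation overlapped these 8 spans.

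The serum amyloid A genes are close copies, which matters for how reads can be assigned to them. The first 120 coding bases of the annotated transcripts are shown for that reason, 5′ to 3′. Capitals in Saa2 and Saa3 mark bases that differ from Saa1 at the same position, and capitals in Saa1 mark positions where either of the others differs.
Saa1: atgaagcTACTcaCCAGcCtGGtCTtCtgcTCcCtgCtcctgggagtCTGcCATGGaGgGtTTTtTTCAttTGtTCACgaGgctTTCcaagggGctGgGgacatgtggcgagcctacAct
Saa2: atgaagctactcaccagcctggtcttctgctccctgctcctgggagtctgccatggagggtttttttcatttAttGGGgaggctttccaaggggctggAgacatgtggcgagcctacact
Saa3: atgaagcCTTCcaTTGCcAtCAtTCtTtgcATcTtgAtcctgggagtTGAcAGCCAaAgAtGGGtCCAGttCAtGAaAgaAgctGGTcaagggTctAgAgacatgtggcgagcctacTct
Within this stretch Saa2 differed from Saa1 at 5 positions and Saa3 at 48. Over the whole coding sequence of 366 bases, Saa1 and Saa2 were 95.1% identical, Saa1 and Saa3 78% and Saa2 and Saa3 76.3%. Of all 50-base windows of the Saa1 transcript, 14.8% also occurred exactly in a transcript of another gene, Saa2 or Saa3. For Saa2 the share was 13.3%, and for Saa3 it was 1.78%. Retnlb, Dmbt1, Lypd8 and Plac8 had no such window, and Pigr had 1.74%. At 150 bases, the stated read length, no window of any of the 8 transcripts occurred in another gene.

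Promoter windows from 250 bases before to 50 bases after the annotated start (RefSeq sequence, GRCm38.p6) were found for 6 of the 8 members, namely the serum amyloid A genes, Lypd8, Pigr and Plac8. They were searched on both strands for the STAT motif (TTCNNNGAA), a C/EBP motif (TTGCNNAA), an NF-kB motif and the start-site box TATAAA. STAT and C/EBP factors are the classical activators of acute-phase genes, and C/EBP factors are induced by IL-6 family cytokines. A member counted as holding a motif if any of its windows did, and Lypd8 and Plac8 had a further window each. The shares over all promoters are per window, so the units differ. The C/EBP letters were present in 4 of the 6 members, Saa1, Saa2, Saa3 and Plac8, and in 10.8% of all 32851 promoter windows. The Saa1 and Saa2 windows are near copies of each other, so their matches are not separate. The NF-kB letters were present in Lypd8 and Pigr and in 20.7% of all windows. The STAT letters were present only in Pigr among the 6 and in 8.3% of all windows, and no member held the box TATAAA, which 13.6% of all windows did. The windows of the serum amyloid A genes and Pigr are shown with the matches in capitals, because they hold the C/EBP and STAT letters.
Saa1, chr7:46742931-46743230, minus strand: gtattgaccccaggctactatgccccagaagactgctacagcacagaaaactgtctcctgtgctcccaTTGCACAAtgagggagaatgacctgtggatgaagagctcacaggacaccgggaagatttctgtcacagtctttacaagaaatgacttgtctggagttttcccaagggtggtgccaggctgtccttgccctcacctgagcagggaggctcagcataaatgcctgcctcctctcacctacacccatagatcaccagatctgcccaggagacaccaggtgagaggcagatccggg
Saa2, chr7:46751583-46751882, plus strand: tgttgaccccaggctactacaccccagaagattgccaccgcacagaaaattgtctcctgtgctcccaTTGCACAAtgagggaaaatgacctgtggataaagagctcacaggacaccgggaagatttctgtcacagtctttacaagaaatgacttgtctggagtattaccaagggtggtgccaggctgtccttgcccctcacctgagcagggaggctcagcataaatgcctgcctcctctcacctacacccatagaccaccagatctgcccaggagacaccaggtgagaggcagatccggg
Saa3, chr7:46715627-46715926, minus strand: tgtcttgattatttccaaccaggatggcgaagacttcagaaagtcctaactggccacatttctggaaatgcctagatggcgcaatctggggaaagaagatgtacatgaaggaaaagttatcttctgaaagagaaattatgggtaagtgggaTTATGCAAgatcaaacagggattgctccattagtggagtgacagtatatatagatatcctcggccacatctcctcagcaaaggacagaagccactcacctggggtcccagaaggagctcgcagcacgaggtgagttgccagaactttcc
Pigr, chr1:130826434-130826733, plus strand: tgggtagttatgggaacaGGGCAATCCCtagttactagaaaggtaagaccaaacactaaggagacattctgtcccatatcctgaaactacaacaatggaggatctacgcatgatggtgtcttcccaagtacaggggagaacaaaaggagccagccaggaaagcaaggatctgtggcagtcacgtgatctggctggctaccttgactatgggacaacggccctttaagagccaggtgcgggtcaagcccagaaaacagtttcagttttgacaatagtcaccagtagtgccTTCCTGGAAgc
The Saa1 and Saa2 windows were 96% identical over 299 aligned bases and held the same C/EBP letters TTGCACAA, at -182 and -183 from the start. The Saa3 window was 61% identical to that of Saa1 and held its match, TTATGCAA, nearer the start at -99. In Pigr the STAT letters TTCCTGGAA began at 39 bases after the start and the NF-kB letters GGGCAATCCC lay at -232. These matches describe letters only, and no binding was measured.

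**Figure D1:**
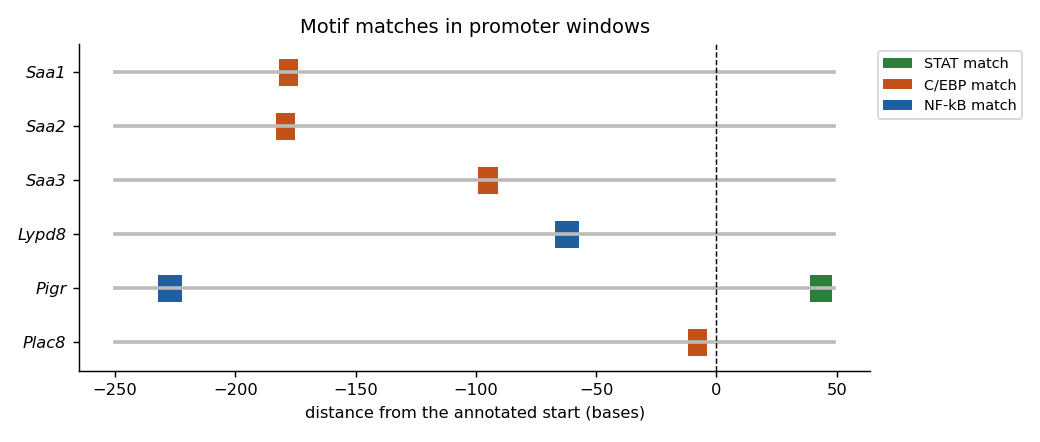
Position of motif matches in the promoter windows of 6 members, in bases from the annotated start (dashed line at 0). Coloured boxes are matches and grey lines the searched window. Lypd8 and Plac8 have 2 annotated starts each, drawn on the same line, and 1 of their windows held a match. The C/EBP boxes of Saa1 and Saa2 sit at almost the same distance, and that of Saa3 is nearer the start.

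The cultures had 2135000 to 5574860 counts on genes (median 3499276). They were scaled by TMM to counts per 1000000 (CPM). The 12559 genes with enough counts entered a quasi-likelihood fit in edgeR, whose tests were two-sided, and a gene passed at a Benjamini-Hochberg adjusted p under 0.01. Of the members, 6 were tested. Saa1 and Saa2 had too few counts, and Retnlb and Saa3 entered through the groups in which they were high. Atg16l1 was at 31.6 to 51.8 CPM in fl/fl and 0.289 to 5.96 CPM in ΔIEC cultures, with no overlap. The cultures carried markers of intestinal epithelium, with Epcam at 1275 to 1647 CPM. Of 6 small intestine markers, Gata4 was at 142 to 190, Fabp2 at 14.6 to 269, Rbp2 at 9.50 to 213 and Sis at 103 to 1497 CPM. Fabp2, Rbp2 and Sis were lower on average with IL-22 in both genotypes. Fabp6, an ileal bile acid binder, was at no more than 2.12 CPM and Slc10a2 at 2.27 to 17.5 CPM. Of 4 colon markers, Slc37a2 was at 0.810 to 29.5 CPM, and Car1, Car4 and Aqp8 were at no more than 4.67 CPM. Of 8 immune cell markers, 5 had at most 3 counts in every culture, among them Ptprc and Cd3e, while Csf1r had 20 to 58 counts, Itgam up to 17 and Lyz2 up to 16. Of 7 stromal and endothelial markers, 6 were at that level and Pecam1 was above it. Of 4 liver markers, Alb and Serpina1a were at that level, Apoh had 7 to 25 counts and Ttr up to 30. As these are bulk cultures, fewer cells of a type and less RNA per cell cannot be told apart in any value given here.

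The members differed widely in level. Levels between genes were compared as CPM per kilobase of the gene's merged exons. In untreated fl/fl organoids the order was Pigr at 612 ± 60.7 CPM per kilobase (SD, n = 4), Lypd8 at 431 ± 69.9, Plac8 at 377 ± 106, Dmbt1 at 35.6 ± 7.81, Saa3 at 0.628 ± 0.232 and Saa1 at 0.112 ± 0.0966. Lypd8 and Plac8 overlapped in that order. Retnlb and Saa2 had no count. In IL-22–treated ΔIEC organoids Lypd8 at 1101 ± 119 and Dmbt1 at 1045 ± 152 CPM per kilobase led and did not differ beyond their spread. They were followed by Plac8 at 496 ± 44.4, Pigr at 357 ± 20.7, Retnlb at 24.1 ± 10.8, Saa3 at 5.41 ± 1.16 and Saa1 at 0.160 ± 0.113 CPM per kilobase. In IL-22–treated fl/fl organoids Lypd8 led at 758 ± 83.5, Pigr at 507 ± 86.3 and Dmbt1 at 503 ± 51.9 CPM per kilobase did not differ beyond their spread, and Plac8 stood at 409 ± 65.0. The places of Plac8, Retnlb and Saa3 rest on the length used. The length of the first numbered transcript was tried after the values were seen. With it, Plac8 stood at 806 CPM per kilobase in untreated fl/fl organoids, above Pigr at 639. In IL-22–treated ΔIEC organoids it put Saa3 at 25.4 and Retnlb at 24.1 CPM per kilobase. There Plac8 stood at 1060, beside Lypd8 at 1293 and Dmbt1 at 1181.

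**Figure D2:**
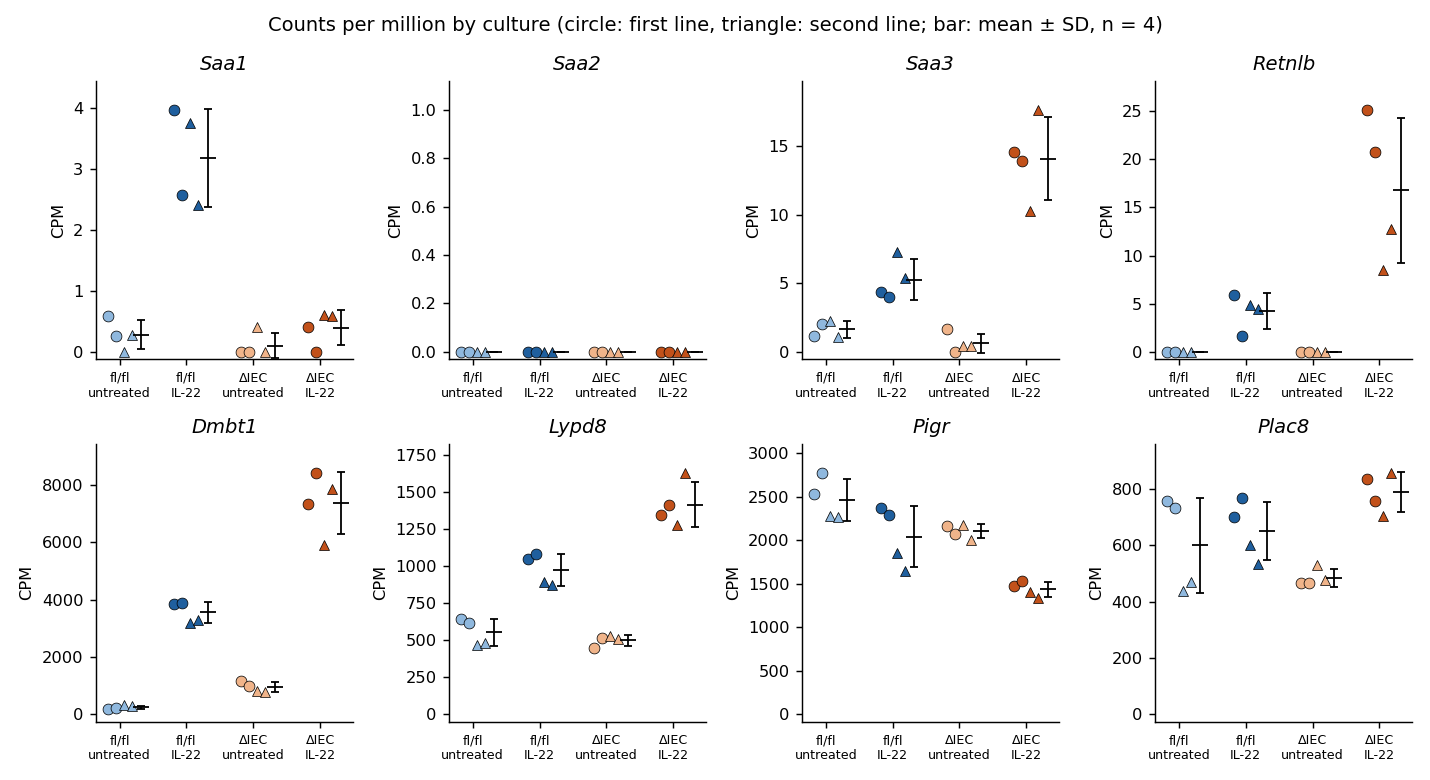
CPM of each member in the 16 cultures (linear axis from 0, its own scale per gene). Circles are cultures of the first and triangles of the second organoid line of a genotype, and the bar beside them is the mean ± SD over 4 cultures. Saa2 is at 0 throughout, Retnlb is at 0 without IL-22, and Saa1 is highest in IL-22–treated fl/fl organoids while Saa3, Retnlb, Dmbt1 and Lypd8 are highest in IL-22–treated ΔIEC organoids.

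Saa3 rose with IL-22 in both genotypes, and it was higher in ΔIEC than in fl/fl organoids once IL-22 was present. Untreated fl/fl cultures had 1.17, 2.04, 2.27 and 1.07 CPM, and treated fl/fl cultures 4.36, 3.97, 7.32 and 5.39 CPM. Untreated ΔIEC cultures had 1.65, 0, 0.402 and 0.415 CPM, and treated ΔIEC cultures 14.6, 13.9, 10.3 and 17.7 CPM. All treated cultures of a genotype lay above its untreated ones, as in 15.4% of tested genes in fl/fl and 14.1% in ΔIEC organoids, and every treated ΔIEC culture lay above every treated fl/fl culture (15.4% of tested genes). The log2 fold change was 1.74 (SE 0.41, edgeR adjusted p = 0.00285) in fl/fl and 4.31 (SE 0.43, adjusted p = 3.14e-07) in ΔIEC organoids. These were the 126th and the 25th highest fold changes of the 12559 tested genes. Treated ΔIEC exceeded treated fl/fl organoids by 1.38 on the log2 scale (SE 0.29, adjusted p = 0.00145), while the untreated difference of -1.19 (SE 0.62, adjusted p = 0.185) did not pass. The untreated ΔIEC value rests on 9 counts in all. The fl/fl call did not hold without the second fl/fl line (log2 1.32, adjusted p = 0.144), without the first (2.09, adjusted p = 0.0148), or without untreated fl/fl replicate 1 (1.62, adjusted p = 0.0103), untreated fl/fl replicate 4 (1.58, adjusted p = 0.0128) or treated fl/fl replicate 3 (1.50, adjusted p = 0.0167). The treated genotype difference missed the threshold without the first fl/fl line (1.09, adjusted p = 0.0216) and without the second ΔIEC line (1.37, adjusted p = 0.0110).

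Saa1 went the other way between genotypes, at a low level. Untreated fl/fl cultures held 2, 1, 0 and 1 counts, and treated fl/fl cultures 10, 11, 20 and 8 counts, or 3.96, 2.57, 3.75 and 2.40 CPM. Treated ΔIEC cultures held only 1, 0, 2 and 2 counts, and untreated ΔIEC cultures 1 count in all. In fl/fl organoids all treated cultures lay above all untreated ones, as in 15.4% of tested genes. Every treated ΔIEC culture lay below every treated fl/fl culture, as in 14.2% of tested genes. The counting ratio of treated to untreated was 10.5 (95% exact interval 3.86 to 40.1) in fl/fl and 5.17 (0.579 to 245) in ΔIEC organoids, and treated ΔIEC stood at 0.124 (0.0385 to 0.309) of treated fl/fl organoids. These intervals cover counting error only. Exact permutation tests of these differences gave p = 0.0286 in fl/fl organoids and between treated genotypes, the smallest that 4 against 4 cultures allow (0.0571 adjusted over 4 comparisons), and p = 0.143 in ΔIEC organoids. In the edgeR fit without a filter on low counts, the log2 fold change was 3.25 (SE 0.68, adjusted p = 3.08e-05) in fl/fl organoids and -2.88 (SE 0.66, adjusted p = 1.88e-04) between treated genotypes. That fit held 25406 genes. It also gave lower adjusted p-values than the filtered fit for the differences between responses of Dmbt1, Lypd8 and Plac8. The response in ΔIEC organoids did not pass in that fit (1.93, SE 1.22, adjusted p = 0.402), nor did the difference between the responses (-1.32, SE 2.59, adjusted p = 1.00).

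Saa2 had no count in any of the 16 cultures. Over the 55101878 reads counted on genes, 0 counts allow a mean level over all 16 cultures of up to 0.0548 CPM (3 counts). Within a single group the limit is higher. There 3 counts give 0.226 CPM in untreated fl/fl, 0.227 CPM in untreated ΔIEC and 0.194 CPM in treated fl/fl organoids. Saa2 is the member whose sequence is nearest to that of Saa1, as the coding and promoter windows above show. Saa4, the constitutive member of the family, had at most 4 counts in a culture.

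Retnlb was counted only in the presence of IL-22. All 8 untreated cultures had 0 counts. Treated fl/fl cultures had 15, 7, 26 and 15 counts, or 5.94, 1.64, 4.88 and 4.49 CPM, and treated ΔIEC cultures 62, 73, 28 and 44 counts, or 25.1, 20.7, 8.46 and 12.7 CPM. Every treated ΔIEC culture lay above every treated fl/fl culture (15.4% of tested genes), and within ΔIEC the first line was above the second. Against the level that 3 counts over the untreated group would give, Retnlb was at least 18.0-fold higher in treated fl/fl (edgeR adjusted p = 4.91e-04) and at least 71.4-fold higher in treated ΔIEC organoids (adjusted p = 5.25e-06). With the counting error of the treated group included, the exact 95% lower limits of these ratios were 14.2 and 57.6. Treated ΔIEC exceeded treated fl/fl organoids by 2.00 on the log2 scale (SE 0.39, adjusted p = 0.00152), a counting ratio of 3.99 (95% interval 2.99 to 5.37). This difference was 1.35 (adjusted p = 0.0418) without the first ΔIEC line, and the fl/fl call missed the threshold without the second fl/fl line (adjusted p = 0.0252). Whether the responses differ could not be estimated from 2 untreated groups at 0. The summed level of 9 goblet cell markers, the cells known for this protein, was 2156 to 3381 CPM in untreated and 2076 to 3087 CPM in treated fl/fl cultures, and 1528 to 2033.5 and 1068 to 1738 CPM in ΔIEC cultures. The lowest summed range was in the group with the highest Retnlb, but the 9 markers did not go the same way. With IL-22, 3 passed higher and 1 lower in fl/fl organoids (10.6% and 10.2% of all tested genes). In ΔIEC organoids 2 passed higher and 2 lower (9.83% and 7.65%). The relation of these markers to Retnlb was not tested. The related resistin genes Retnla and Retnlg had no count and Retn at most 1.

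Dmbt1 rose with IL-22 in both genotypes, and it was the only member whose difference between genotypes passed without IL-22. With IL-22 it had the most counts of the 8 genes. Untreated fl/fl cultures had 197, 214, 315 and 280 CPM and untreated ΔIEC cultures 1168, 989, 817 and 795 CPM. With IL-22, fl/fl cultures had 3832, 3896, 3182 and 3290.5 CPM and ΔIEC cultures 7320, 8415, 5910 and 7840 CPM. None of the 4 groups overlapped with another. With IL-22, 15.4% of tested genes in fl/fl and 14.1% in ΔIEC organoids lay wholly higher. In ΔIEC against fl/fl organoids, 10.6% untreated and 15.4% treated lay wholly higher. The log2 fold change with IL-22 was 3.82 (SE 0.16, edgeR adjusted p = 1.20e-12) in fl/fl and 2.97 (SE 0.15, adjusted p = 2.61e-11) in ΔIEC organoids, that is 14.2-fold and 7.82-fold. ΔIEC exceeded fl/fl organoids by 1.91 (SE 0.15, adjusted p = 1.80e-07) untreated and by 1.05 (SE 0.14, adjusted p = 2.97e-05) treated. The ΔIEC response minus the fl/fl response was -0.86 on the log2 scale (95% interval -1.29 to -0.43), which missed the threshold over all genes (adjusted p = 0.230) and passed it with the organoid line as a block (-0.86, SE 0.15, adjusted p = 0.00157) and without a filter on low counts (adjusted p = 1.13e-08). It did not pass in limma-voom (adjusted p = 0.0252) or with the cultures of a line summed (adjusted p = 1.00). By line, the IL-22 ratio was 18.8 and 10.9 in fl/fl and 7.30 and 8.53 in ΔIEC organoids.

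Lypd8 rose with IL-22 in both genotypes, and with IL-22 it was higher in ΔIEC than in fl/fl organoids. It had 645, 616, 470 and 483 CPM in untreated fl/fl and 448, 515, 530 and 510 CPM in untreated ΔIEC cultures. With IL-22 it had 1045, 1084, 892 and 870 CPM in fl/fl and 1342, 1409, 1276 and 1628 CPM in ΔIEC cultures. The untreated groups overlapped, whereas the treated ΔIEC cultures all lay above the treated fl/fl cultures (15.4% of tested genes). The log2 fold change was 0.81 (SE 0.11, edgeR adjusted p = 1.33e-05) in fl/fl and 1.50 (SE 0.11, adjusted p = 4.79e-09) in ΔIEC organoids. The genotypes differed by 0.54 when treated (SE 0.11, adjusted p = 8.97e-04) and by -0.15 when untreated (95% interval -0.38 to 0.08, adjusted p = 0.364). The difference between the responses was 0.69 (95% interval 0.37 to 1.01). It did not pass over all genes (adjusted p = 0.209) but passed with the line as a block (0.68, SE 0.10, adjusted p = 1.15e-04), without a filter on low counts (adjusted p = 8.40e-05) and in limma-voom (adjusted p = 0.00978), and not with the cultures of a line summed (adjusted p = 1.00). The ratio was 1.69 and 1.85 in the fl/fl lines against 2.86 and 2.79 in the ΔIEC lines. The treated genotype difference missed the threshold without the first ΔIEC line (0.57, adjusted p = 0.0103) and without the second (0.47, adjusted p = 0.0119).

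Pigr was the member that fell. Untreated fl/fl cultures had 2535, 2775, 2273 and 2262 CPM and treated fl/fl cultures 2372, 2289, 1856 and 1646 CPM. Untreated ΔIEC cultures had 2160, 2069, 2173 and 2002 CPM and treated ΔIEC cultures 1477, 1530, 1401 and 1341 CPM. The fl/fl groups overlapped, and the treated ΔIEC cultures lay below all the others. Wholly lower were 13.2% of tested genes with IL-22 in ΔIEC organoids and 14.2% in treated ΔIEC against treated fl/fl organoids. Pigr changed by -0.55 on the log2 scale in ΔIEC organoids (SE 0.10, edgeR adjusted p = 3.39e-04), and treated ΔIEC were lower than treated fl/fl organoids by -0.51 (SE 0.10, adjusted p = 8.25e-04). In fl/fl organoids the change of -0.27 (SE 0.10, adjusted p = 0.0445) missed the threshold and passed it with the line as a block (-0.28, SE 0.06, adjusted p = 4.77e-04). The untreated genotype difference was -0.23 (SE 0.10, adjusted p = 0.113), although all untreated ΔIEC cultures lay below all untreated fl/fl cultures, as 12.6% of tested genes did. That difference passed without the second fl/fl line (-0.34, adjusted p = 0.00435). In ΔIEC organoids the fall missed the threshold without the first line (-0.61, adjusted p = 0.0111) and without the second (-0.53, adjusted p = 0.0304), and the treated genotype difference did without the second ΔIEC line (-0.47, adjusted p = 0.0160). The responses differed by -0.28 (95% interval -0.57 to 0.02, adjusted p = 0.719). Beside it, the summed level of 9 enterocyte markers went from 5632 to 6856 CPM in untreated to 1858 to 2211 CPM in treated fl/fl cultures, and from 5345 to 7150 to 1730 to 3192 CPM in ΔIEC cultures. Their part in the fall of Pigr was not tested.

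Plac8 rose with IL-22 in ΔIEC organoids, where the groups did not overlap (14.1% of tested genes lay wholly higher). Untreated ΔIEC cultures had 464, 465, 531 and 475 CPM and treated ones 836, 758, 704 and 857 CPM. The log2 fold change was 0.71 (SE 0.15, edgeR adjusted p = 0.00128), and it missed the threshold without the first ΔIEC line (0.63, adjusted p = 0.0798) and without the second (0.74, adjusted p = 0.0353). In fl/fl organoids the lines stood apart before treatment, at 757 and 734 CPM in the first and 437 and 470 CPM in the second, and the treated cultures had 701, 768, 601 and 535 CPM. There the change was 0.12 (95% interval -0.19 to 0.43, adjusted p = 0.589), and its sign turned without the second line (-0.02) or without untreated fl/fl replicate 3 (-0.01). The difference between the responses was 0.59 (95% interval 0.15 to 1.03, adjusted p = 0.524) and passed with the line as a block (0.56, SE 0.11, adjusted p = 0.00411) and without a filter on low counts (adjusted p = 0.00285). It did not pass in limma-voom (adjusted p = 0.124) or with the cultures of a line summed (adjusted p = 1.00). Neither genotype difference passed, with -0.31 untreated (adjusted p = 0.146) and 0.28 treated (adjusted p = 0.158). Each passed when a fl/fl line was left out, the untreated one without the second (-0.62, adjusted p = 1.33e-04) and the treated one without the first (0.45, adjusted p = 0.00251). Without the first fl/fl line the untreated difference was 0.09 (adjusted p = 0.597).

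**Figure D3:**
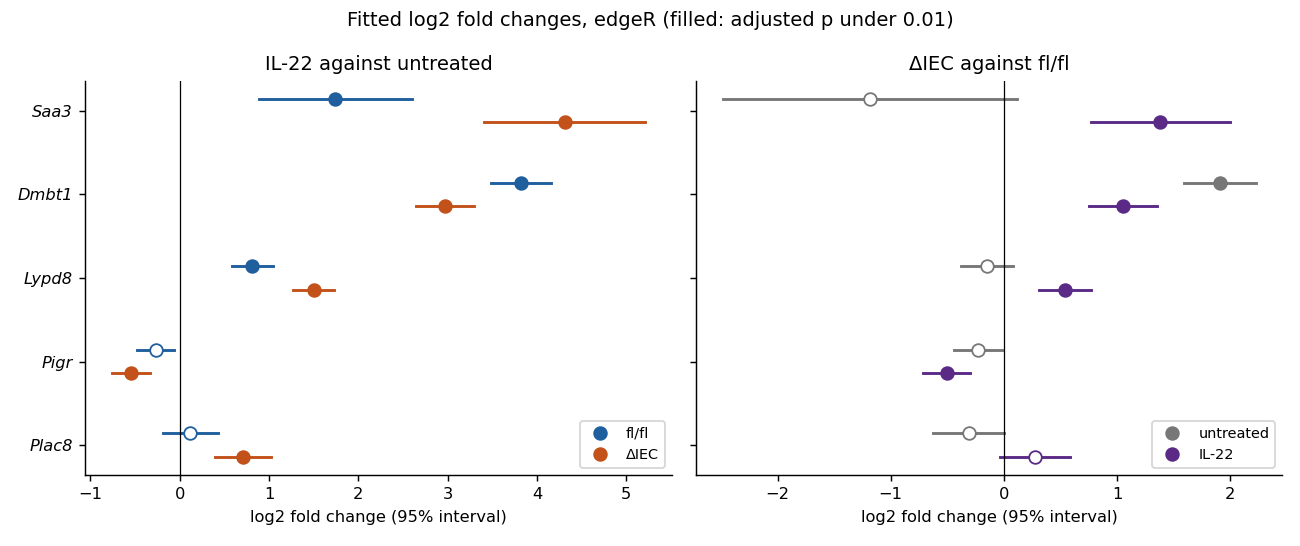
Log2 fold changes with 95% intervals of the 5 members with counts in all groups, IL-22 against untreated by genotype (left) and ΔIEC against fl/fl by treatment (right). Filled points passed an edgeR adjusted p of 0.01. Saa3, Dmbt1 and Lypd8 rose in both genotypes, Dmbt1 alone differed between untreated genotypes, and Pigr is on the negative side in all 4 comparisons.

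Saa3 and Retnlb could be tested only through the groups in which they were high, so counts over the 6 tested members describe them and are not support for a direction. IL-22 passed the threshold in 4 of the 6 tested members in fl/fl organoids, all higher (Saa3, Retnlb, Dmbt1 and Lypd8), where 20.8% of all tested genes passed, 10.6% higher and 10.2% lower (30.6% passed with the line as a block). In ΔIEC organoids all 6 passed, 5 higher and Pigr lower, against 17.5% of all genes, 9.83% higher and 7.65% lower (25.5% with the block). Of the other 4 members (Dmbt1, Lypd8, Pigr and Plac8), 2 passed in fl/fl organoids, both higher, and 4 in ΔIEC organoids, of which 3 were higher. Their median log2 fold change was 0.46 and 1.10, against -0.05 and -0.01 over all tested genes. Between untreated genotypes 1 of 6 passed, higher in ΔIEC organoids (9.76% of all genes, 3.78% higher and 5.98% lower), and between treated genotypes 5 of 6, of which 4 were higher and Pigr was lower in ΔIEC organoids (19.8% of all genes, 9.91% higher and 9.84% lower). With the cultures of a line summed, the calls of Saa3, Retnlb and Lypd8 in fl/fl organoids, of Pigr and Plac8 in ΔIEC organoids and all 5 between treated genotypes missed the threshold (adjusted p from 0.0105 to 0.0643). For the difference between the responses none of the 6 passed in the edgeR fit with its filter or in DESeq2, 1 (Lypd8) passed in limma-voom with a correlation within lines, and 2 of all 12559 genes passed in edgeR (0.0159%). An unadjusted p under 0.05 was reached by 912 genes, among them Saa3, Dmbt1, Lypd8 and Plac8. With the line as a block, Dmbt1, Lypd8 and Plac8 passed and 0.446% of all genes did. The block lowered the standard errors of these 3 and left their values nearly as they were. It fits no response for each line, so its units are cultures and not lines. The IL-22 and genotype comparisons share their cultures and are not independent of each other.

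**Figure D4:**
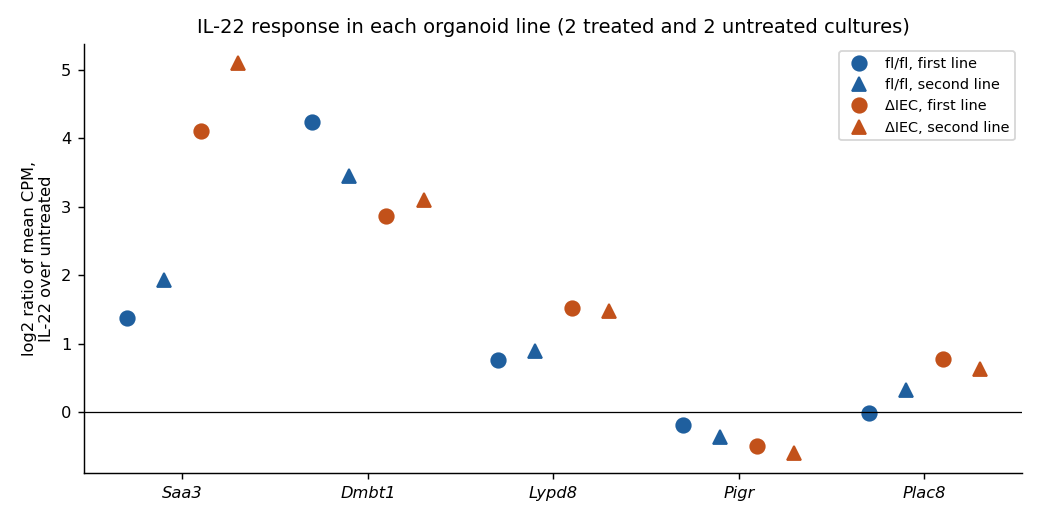
Log2 ratio of mean CPM, IL-22 over untreated, in each of the 4 organoid lines (2 treated and 2 untreated cultures per point). For Dmbt1 both fl/fl lines lie above both ΔIEC lines, and for Saa3, Lypd8 and Plac8 both ΔIEC lines lie above both fl/fl lines. With 2 lines per genotype such an order is a description only.

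Over the 16 cultures Saa3, Retnlb, Dmbt1 and Lypd8 went up and down together (Pearson r of log2 CPM 0.771 to 0.942 in pairs). Pigr ran against each of them (-0.802 to -0.707). Treatment is a part of these values, and with group means removed the pairs among Saa3, Retnlb, Dmbt1 and Lypd8 had r of -0.315 to 0.298. Lypd8 and Plac8 were the most alike once group means were removed (Pearson r of log2 CPM 0.9, n = 16 cultures), followed by Pigr and Plac8 (0.704) and Lypd8 and Pigr (0.574), and for these 3 genes the first fl/fl line was higher than the second in untreated cultures. Saa3 and Retnlb had r = 0.919 over all cultures and 0.226 within groups. Cultures of a group share their treatment and, in pairs, their line, so these values are descriptions. The genes outside the members whose log2 CPM followed each of them most closely over the 16 cultures were Fut2 (r = 0.926), Kremen2 (0.919) and Mgat4c (0.918) for Saa3, and Ppt1 (0.973), Golm1 (0.965) and Srpr (0.964) for Retnlb. For Dmbt1 they were Gmds (0.978), Gm20412 (0.976) and Gpx2 (0.975), and for Lypd8 Sptlc2 (0.978), Duoxa2 (0.976) and Atp2a2 (0.975). For Pigr they were Adh6a (0.962), Slc11a2 (0.952) and Cpm (0.952), and for Plac8 Sdf4 (0.918), P4hb (0.897) and Ginm1 (0.892). Treated and untreated cultures both enter, so the difference between them is a part of each value.

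Of 22 listed relatives of the members, other genes of the Ly6, SAA, resistin-like, PLAC8, scavenger receptor and Fc receptor families, 21 had a row in the table and 5 had enough counts to be tested. Of these, 2 rose in both genotypes, the surface proteins Ly6c1 (log2 fold change 5.75 in fl/fl and 5.36 in ΔIEC organoids) and Ly6a (3.11 and 3.27). Ly6c1 had 9 counts in the untreated fl/fl and 12 in the untreated ΔIEC group, and was tested because it was high in treated cultures. The other 3 did not pass, and the median of the 5 was 1.03 in fl/fl and 2.04 in ΔIEC organoids. Over all tested genes the medians were -0.05 and -0.01, and 10.6% and 9.83% rose.

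Of 20 other acute-phase genes, 7 were tested and 3 rose in each genotype, where 10.6% (fl/fl) and 9.83% (ΔIEC) of all tested genes rose. Lcn2, which withholds iron from bacteria by binding siderophores, went from 0.137 to 59.5 CPM on average in fl/fl and from 0.123 to 69.4 CPM in ΔIEC organoids (edgeR adjusted p = 6.97e-12 and 3.80e-12). C3, the central complement component, followed the pattern of Saa3, with log2 fold changes of 2.28 (adjusted p = 8.26e-04) in fl/fl and 5.02 (adjusted p = 8.47e-10) in ΔIEC organoids and a treated genotype difference of 3.10 (SE 0.25, adjusted p = 1.72e-07). Its responses differed by 2.75 (SE 0.75, adjusted p = 0.316), short of the threshold. Lbp, which binds lipopolysaccharide, had no count in untreated fl/fl cultures and a mean of 2.02 CPM in treated ones, and it went from 0.429 to 6.78 CPM in ΔIEC organoids (adjusted p = 7.55e-05 and 2.90e-06). Like Saa3, Lcn2, C3 and Lbp were tested because they were high in treated cultures. C3 had 11 counts in the untreated fl/fl and 14 in the untreated ΔIEC group. The count of 3 therefore describes these genes and is not support for a direction. The other 4 tested genes, Cfb, Il1rn, Mt1 and Mt2, passed with IL-22 in neither genotype. The liver acute-phase gene Hp had at most 1 count in a culture. The median of the 7 was 0.52 in fl/fl and 0.63 in ΔIEC organoids (-0.05 and -0.01 over all tested genes).

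Of 22 other secreted mucosal defence genes, 13 were tested. In fl/fl organoids 5 rose and 1 fell, where 10.6% of all tested genes rose and 10.2% fell. In ΔIEC organoids 5 rose and 2 fell, where 9.83% of all tested genes rose and 7.65% fell. The 5 that rose were those of the antibacterial lectins Reg3b (10.53 in fl/fl and 11.22 in ΔIEC organoids), Reg3g (9.66 and 10.09) and Reg3a (3.76 and 3.69), the phospholipase Pla2g2a (1.97 and 3.21) and the mucin Muc2 (0.96 and 1.17). Zg16, a goblet cell lectin, fell in fl/fl organoids by 1.01 (adjusted p = 0.00853) and stood at -0.93 in ΔIEC organoids (adjusted p = 0.0138). In ΔIEC organoids the goblet cell products Fcgbp (-0.95, adjusted p = 0.00145) and Tff3 (-0.83, adjusted p = 0.00339) fell. The list's median was 0.29 and 0.10 (-0.05 and -0.01 over all tested genes).

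Of 16 IL-22 signalling genes, 13 were tested, and 9 rose in fl/fl and 10 in ΔIEC organoids, with none lower. Among all tested genes 10.6% rose in fl/fl and 9.83% in ΔIEC organoids. Osmr, a receptor chain of the IL-6 family, went from 0.0638 to 11.3 CPM on average in fl/fl and from 0.162 to 8.26 CPM in ΔIEC organoids. It had 1 count in the untreated fl/fl and 2 in the untreated ΔIEC group, and was tested because it was high in treated cultures. The count of genes that rose includes Osmr and is not support for a direction. The feedback inhibitor Socs3 rose by 4.53 and 4.31 and the transcription factor Cebpd, of the C/EBP family, by 2.06 and 1.99. Small changes were those of the IL-22 receptor chain Il22ra1, which rose by 0.49 and 0.58, of the shared receptor chain Il6st, which rose by 0.45 and 0.56, and of Cebpb, a C/EBP family factor. Cebpb passed in ΔIEC organoids (0.71, edgeR adjusted p = 0.00370) and not in fl/fl organoids (0.45, adjusted p = 0.0542). The list's median was 0.74 and 0.71, against -0.05 and -0.01 over all tested genes. In the difference between the responses no gene of these 4 lists passed in the filtered edgeR fit, DESeq2 or limma-voom. An unadjusted edgeR p under 0.05 was reached by C3, Fcgbp, Pla2g2a and Reg3b, and with the line as a block Fcgbp and Pla2g2a passed.

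**Figure D5:**
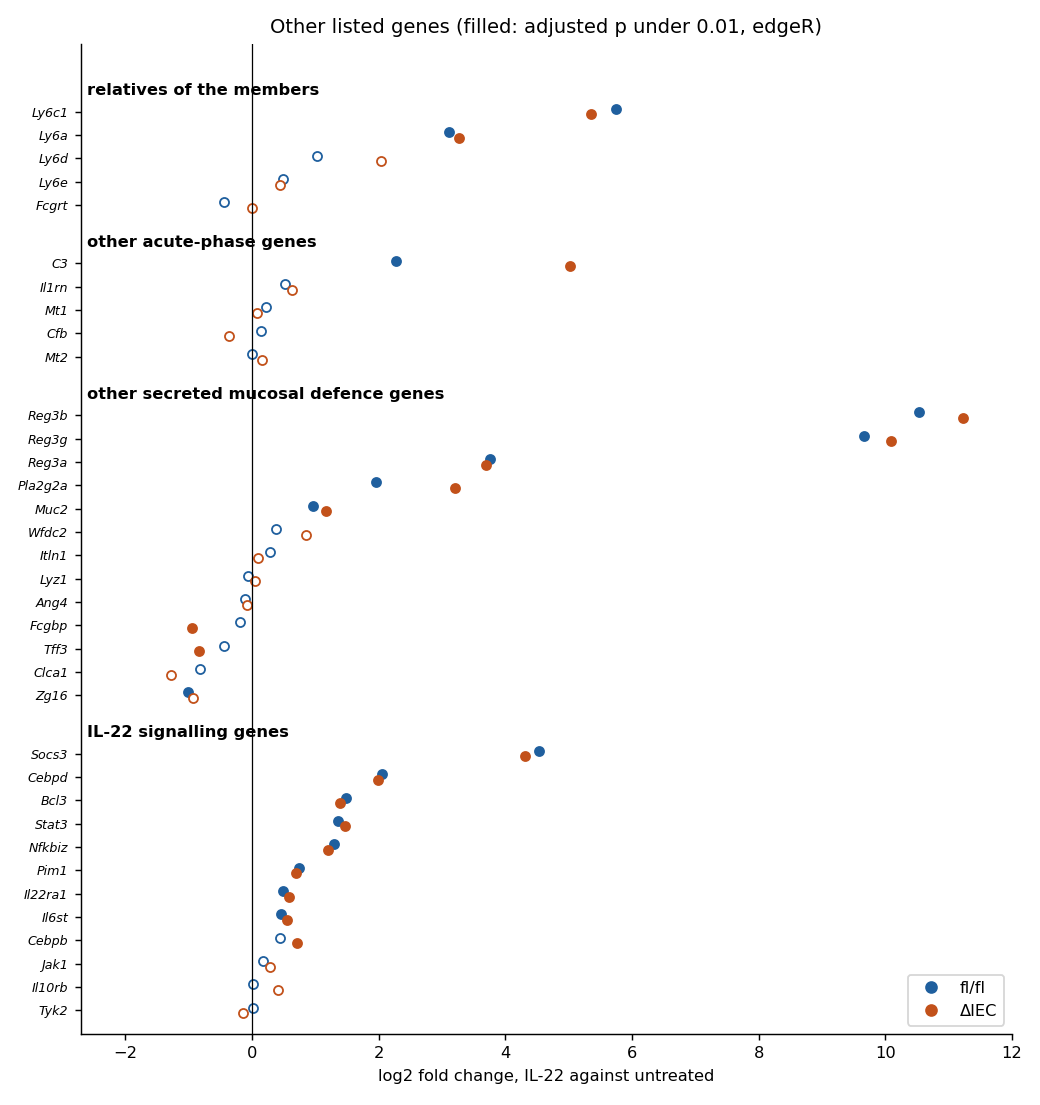
Log2 fold changes with IL-22 in fl/fl (blue) and ΔIEC (orange) organoids of tested genes of the 4 other lists. Filled points passed an edgeR adjusted p of 0.01. Genes with at most 3 counts in an untreated group (Lcn2, Lbp and Osmr) are left out. Reg3b and Reg3g have the largest changes, near 10, and the C3 points of the 2 genotypes stand apart.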

How the data were processed

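RNA of 16 organoid cultures was sequenced with 150-nt paired-end reads per the study's methods. The authors trimmed reads with cutadapt and aligned them with TopHat2 to GRCm38. They deposited HTSeq read counts per gene, unnormalized whole numbers. Labels and methods differ on the library kit (TruSeq RNA v2 or stranded total RNA), and whether counting used strand, and with which annotation release, is not given in the sources used here. Of the reads in the table, 21.5% to 24.2% aligned to several places and 38.02% to 40.1% lay on no gene. These lines were left out of library sizes and tests. Of 49585 genes, 49326 (99.48%) were matched by identifier without version to a GENCODE mouse annotation on GRCm38, which gave symbols, positions and lengths.

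Genes were kept by edgeR's filter for the 4 groups, libraries were scaled by TMM, and a mean was fitted for each group in R 4.3.3 with edgeR 4.0.16 (two-sided quasi-likelihood tests, Benjamini-Hochberg adjustment over 12559 genes per comparison, threshold 0.01). Compared were treated with untreated organoids of a genotype, the 2 responses with each other, and ΔIEC with fl/fl organoids at either treatment. Standard errors were derived from the fold change and its F statistic. A fold against a group at 0 is a lower bound against 3 counts over the group, and ratios of few counts have exact 95% intervals. Reads are not independent molecules, and such limits hold for counting error alone. Log2 CPM used a prior count of 2. The common biological coefficient of variation was 0.115.

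Nothing in the labels says whether the cultures of a line were grown separately, so p-values measure the spread between these cultures. Pairs of cultures of a group differed by more than sampling noise. The organoid line was taken as the pairing, since labels number the line. Across genes, deviations from group means of treated and untreated cultures correlated at 0.263 to 0.438 within and -0.435 to -0.218 between fl/fl lines, and at 0.0563 to 0.321 and -0.352 to -0.0779 for ΔIEC lines. Deviations from a group mean cancel out within the group, so positive values within lines bring negative ones between lines. The negative values are thus no separate evidence.

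On simulated counts for IL-22 in fl/fl organoids over 12559 genes, the steps recovered 76% of genes changed by 1 and 95.96% of those changed by 2 on the log2 scale, and 3 unchanged genes were called. The simulated cultures were independent and held no difference between lines, so these figures do not cover cultures that share a line. Alternatives were DESeq2 1.42.0, RLE scaling, other filters, the compared groups only, summed lines, the line as a block, limma-voom (limma 3.58.1) with a correlation of 0.261 within lines, a threshold of 0.05, and each culture or line left out.

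The members, the gene and marker lists and the motifs were chosen with earlier results of these data known. Named outside the members are Atg16l1, the 3 genes most like each member, and per list the 3 largest and 3 smallest fl/fl changes among genes past the threshold in either IL-22 comparison. One gene of the IL-22 signalling list is not reported here and was left out of the list. Marker genes are named to check the tissue, and other genes where a count of 5 or fewer refers to them, and these were chosen after their values were seen.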

Additional observations from a re-analysis of the deposited data

Results flagged for a closer look

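In untreated ΔIEC organoids, Plac8 stood at 530.8 CPM in replicate 3, apart from the 464 to 475 CPM of the other 3 cultures by Dixon's criterion for 4 samples. Of 23 groups of 4 examined this way, 1 was singled out, and chance singles out about 1 in 20.

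With the organoid line as a block in edgeR, the difference between the responses to IL-22 passed the threshold for 3 members. The block fits a level for each line but no response for each line. Its units are thus cultures, and its p-values do not treat lines as the replicates of a genotype. The ΔIEC response minus the fl/fl response was -0.8601 on the log2 scale for Dmbt1 (adjusted p = 0.00157), 0.6782 for Lypd8 (adjusted p = 1.15e-04) and 0.5575 for Plac8 (adjusted p = 0.00411). Without the block, in the fit with edgeR's filter, these differences were -0.86, 0.69 and 0.59 and did not pass. All 3 passed without a filter on low counts, Lypd8 alone passed in limma-voom, and none passed with the cultures of a line summed (adjusted p = 1.00 for each). The fit without the filter held 25406 genes. Its values, -0.8626, 0.6878 and 0.5899, were nearly those of the filtered fit, so the calls there do not rest on larger differences. In all 3 genes both ΔIEC lines lay on the same side of both fl/fl lines.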

How the results depend on the processing

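The count of members past the threshold with IL-22 in ΔIEC organoids, 6, ranged from 4 to 6 over 29 alternatives. In fl/fl organoids the count of 4 became 2 with at least 10 counts in every culture, a filter that drops Retnlb and Saa3, and 1 when each line's cultures were summed, which leaves 2 samples per group. It ranged from 2 to 5 with a culture or line left out (2 without the second fl/fl line). For the difference between the responses the count of 0 became 3 without a filter on low counts, 3 with the line as a replicate block and 1 in limma-voom, and it stayed 0 with any culture or line left out and with each line's cultures summed. Between untreated genotypes the count of 1 ranged from 1 to 3 with a culture or line left out. Between treated genotypes the count of 5 became 3 with at least 10 counts in every culture and 0 with summed lines, where the 5 adjusted p-values were 0.0159 to 0.0571, and it ranged from 3 to 5 with a culture or line left out. Over all genes, the calls ranged from 543 to 4057 in fl/fl organoids, 635 to 3500 in ΔIEC organoids, 0 to 80 for the difference between the responses, 10 to 2559 between untreated and 188 to 4168 between treated genotypes, against 2608, 2195, 2, 1226 and 2481. In the IL-22 comparisons and their difference, the block changed the calls of Pigr in fl/fl organoids and of 3 members' differences between responses and no other call of a member. Genotype comparisons lie between lines and were not fitted with the block. Signs turned for Plac8 in fl/fl organoids, which ranged from -0.01979 to 0.3505 with a culture or line left out (-0.005118 without untreated replicate 3), and between untreated genotypes for Lypd8 (-0.3327 to 0.06833) and Plac8 (-0.6228 to 0.09021), where the positive values were those without the first fl/fl line. None of the values with a turned sign passed the test. With transcript length in place of merged exons, chosen after the values were seen, the level in untreated fl/fl organoids became 506.4 CPM per kilobase for Lypd8 and 805.7 for Plac8. The causes of these changes were not tested except where named. Saa1 and Saa2 are limited by depth, with at most 20 and 0 counts in a culture.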
